A study of Mus musculus with 48 samples.

Results

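The insulin receptor signalling and Glut4 genes are 10 genes chosen by name for their place in the pathway, by a rule that uses no measured value, though earlier results of these data were known when it was made. They are Insr and Igf1r (receptors), Irs1 and Irs2 (receptor substrates), Pik3r1 and Akt2 (the PI3K-Akt steps), Tbc1d4 and Slc2a4 (Glut4 release and Glut4 itself), and Grb14 and Enpp1 (inhibitors of the receptor). They were looked up by gene symbol, with 1 row per Ensembl gene, in the tables of 6 mouse tissues, which together hold 15541 genes. All 10 were listed in white adipose tissue and in muscle, 8 in liver, 6 each in duodenum and jejunum, and 5 in ileum. Igf1r and Slc2a4 were not listed in liver. Irs1, Igf1r, Slc2a4 and Grb14 were not listed in any of the 3 gut tables, and Tbc1d4 was not listed in the ileum. Values are in CPM (counts per 1000000 counts of the library), and the genes of a table are those that reach 1 CPM in enough libraries to fill its smaller group. This gives 45 pairs of gene and tissue, of which 44 had a mean of at least 1 CPM and were tested. The pair not tested was Tbc1d4 in the jejunum, at 0.8 to 1.2 CPM in the sham group and 0.4 to 1.1 CPM in the RYGB group.

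The mice were male C57Bl6 mice with diet-induced obesity, and no transgene or mutation is named for them. One group had Roux-en-Y gastric bypass (RYGB), an operation that routes food from a small stomach pouch into the jejunum past the duodenum. The other group had sham surgery. Both groups had been on a high fat diet, both received a liquid elemental diet after surgery, and both were fasted overnight and killed in the morning 9 days after surgery. The labels give neither the age of the mice nor whether the sham mice were matched for weight, and they do not say which libraries of different tissues came from the same mouse. RNA was sequenced from the liver, the subcutaneous white adipose tissue (WAT) and the gastrocnemius muscle (4 sham and 4 RYGB libraries each), and from villi scraped from duodenum and jejunum (4 sham and 3 RYGB libraries each) and ileum (5 and 5). The labels do not say that the libraries of a group came from separate mice, so p-values measure the spread between these libraries, which may be technical.

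Insulin binds the insulin receptor on liver, fat and muscle cells, and the receptor then phosphorylates the IRS proteins. These recruit PI3K, whose lipid product activates Akt. In fat and muscle Akt phosphorylates Tbc1d4 (also called AS160) and thereby releases vesicles that carry the glucose transporter Glut4 to the cell surface, while in liver, which takes up glucose through Glut2, Akt restrains FoxO1 and with it the genes of glucose production. Transcript levels do not measure phosphorylation, so the values below describe how much message for each part of the pathway was present in fasted mice.

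The labelled tissues carried their defining markers: 5 of 5 hepatocyte markers were listed in liver, 7 of 7 adipocyte markers in WAT, 6 of 6 skeletal muscle markers in muscle and 5 of 5 enterocyte markers in each gut segment. Marker sums of other cells differed between the groups in several tissues. In WAT the summed level of 6 B cell markers was 6.7 to 16.3 CPM in the sham libraries and 809.0 to 2091.1 CPM in the RYGB libraries, the sum of 5 T cell markers was 8.3 to 16.8 CPM against 214.9 to 833.9 CPM, and all 11 of these genes were higher at an adjusted p under 0.05. The sum of the 7 adipocyte markers was 8475.0 to 10390.3 CPM against 3829.4 to 7323.6 CPM, and RYGB replicate 4 was at the far end of all of these. The WAT sum of the 3 of 5 keratinocyte markers listed was 3.6 to 143.8 CPM in the sham and 2.2 to 2.6 CPM in the RYGB libraries, with 2 called lower. In liver the sum of 6 macrophage markers was 245.3 to 426.3 CPM in the sham and 588.8 to 1573.6 CPM in the RYGB libraries. In bulk tissue fewer cells of a type and less RNA per cell cannot be told apart, and the part that such shifts have in the results below was not tested beyond the values given beside them. In WAT a difference in what was dissected with the fat cannot be told apart from the operation. Total counts were not given, so depth is unknown, and the values were rounded to 0.1 CPM.

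Each tissue was fitted by itself with limma on log2(CPM + 1), RYGB against sham, and a gene is called here when its p-value, adjusted by the Benjamini-Hochberg method over all genes tested in that tissue, is under 0.05. Of the 44 pairs, 3 were called higher, 2 lower and 39 were not called. The calls were Enpp1 (higher in liver, as 7.03% of all liver genes, and in WAT), Tbc1d4 (higher in WAT, as 23.5% of all WAT genes), Irs1 (lower in WAT, as 13.8%) and Insr (lower in ileum, as 5.68% of all ileum genes). In liver 1 of 8 tested genes of the pathway set was called, where 8.61% of all tested genes were, and in WAT 3 of 10, where 37.2% of all genes were. In the ileum it was 1 of 5 beside 7.97% of all genes. In the jejunum none of 5 was called by limma (2 had an unadjusted p under 0.05) beside 9.81% of all genes (24.6% at an unadjusted p under 0.05). No gene of the set was called in muscle (3 of 10 had an unadjusted p under 0.05) or in duodenum (0 of 6), where 0% and 0.00922% of all genes were called and 14.6% and 18.8% had an unadjusted p under 0.05. The median log2 fold change of the set was 0.24 in liver, where that of all genes was 0.13, and -0.14 in WAT, where that of all genes was 0.11. In muscle it was 0.16 beside 0.05 for all genes. With an added limit of 1.5-fold on the log2(CPM + 1) scale the 3 WAT calls were left (24.1% of all genes) and those in liver (7.08% of all genes) and ileum (6.05%) were not. Each library was also divided by its median ratio to the geometric mean over libraries. This brought the median of all genes to between -0.01 and 0.02 in all 6 tissues. Deposited values carry shifts of 0.13 in liver, 0.11 in WAT, 0.12 in duodenum, 0.05 in muscle, -0.04 in jejunum and -0.09 in ileum. All 5 calls kept their direction and their adjusted p under 0.05 after this scaling.

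**Figure D1:**
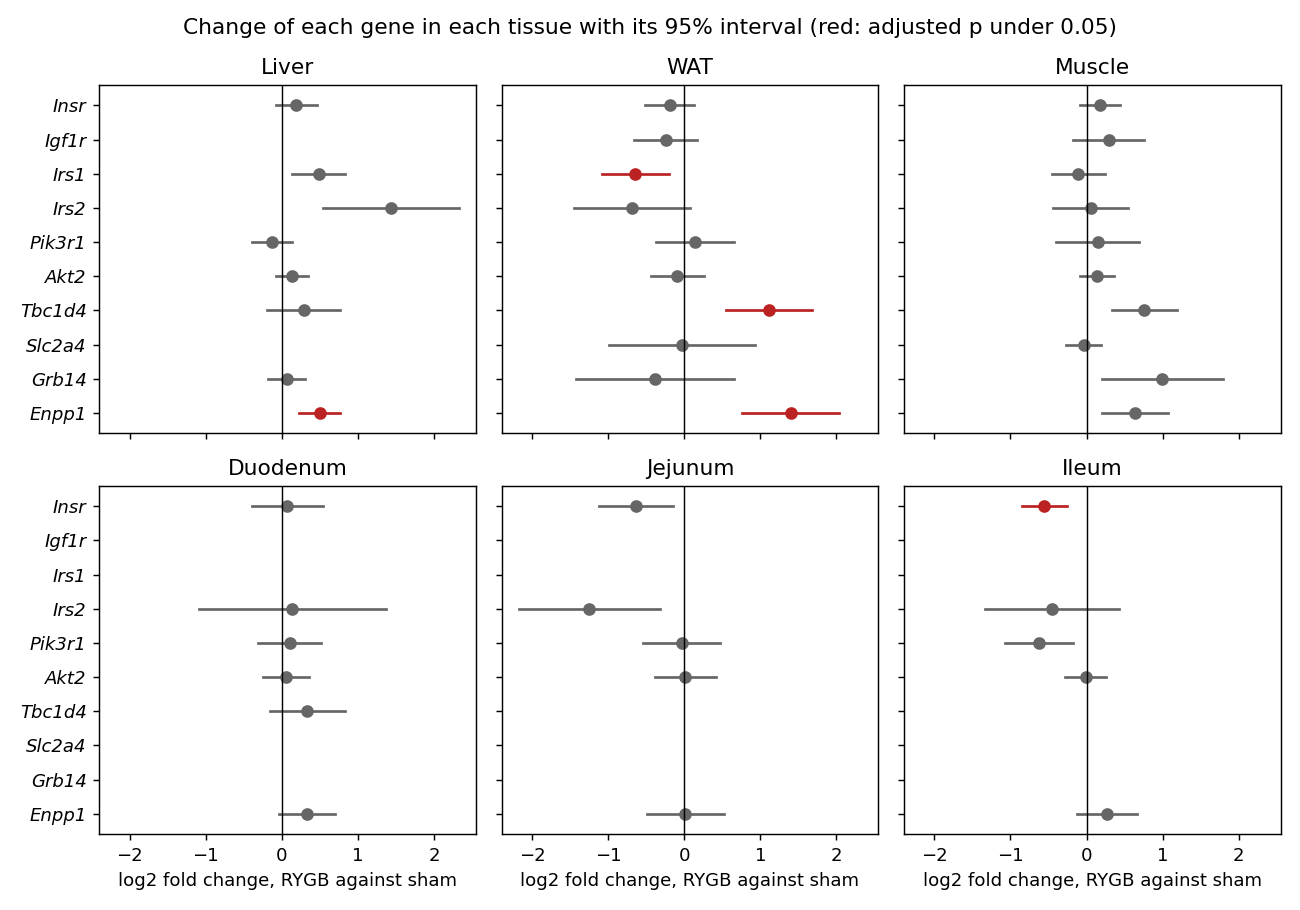
Log2 fold change of each gene (RYGB against sham, horizontal axis, on the log2(CPM + 1) scale) in each of the 6 tissues, with its 95% interval from limma. Red points are the 5 calls at an adjusted p under 0.05, grey points are the other tested genes, and a row without a point is a gene that was not listed or not tested in that tissue.

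Insr, the insulin receptor (chromosome 8, 3122061 to 3279617 on the minus strand of GRCm38, in the GENCODE M21 annotation used for all gene positions here), was listed in all 6 tissues. Its mean in the sham libraries lay between 128.6 CPM in muscle and 215.0 CPM in WAT, with 170.2 CPM in liver and 135.7 to 140.1 CPM in the gut segments. In the ileum it was 141.3, 156.6, 106.4, 122.1 and 158.1 CPM in the sham libraries and 95.1, 94.7, 73.3, 99.4 and 100.1 CPM in the RYGB libraries. All RYGB libraries lay below all sham libraries. The log2 fold change was -0.55 (SE 0.13), with a limma adjusted p of 0.0301. Non-overlap in the lower direction was found for 6.92% of all genes in the ileum. None of the 3 sequencing lanes named for the ileum holds both groups, so the lanes and the operation cannot be told apart there, and the call was lost in 5 of the 10 fits that left out 1 library (adjusted p from 0.0335 to 0.0735, log2 fold change from -0.64 to -0.47). The sum of the ileal T cell markers, 3 of 5 of which were listed, was 11.8 to 31.4 CPM in the sham and 2.2 to 9.2 CPM in the RYGB libraries, while the sum of the 5 enterocyte markers overlapped (27818.7 to 52173.2 CPM against 39438.6 to 59151.7 CPM).

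In the jejunum Insr was 174.2, 121.4, 136.2 and 110.9 CPM in the sham and 64.8, 102.2 and 95.1 CPM in the RYGB libraries. The groups did not overlap there either, as for 12.5% of all genes in that direction. The log2 fold change was -0.64 (SE 0.22, 95% interval -1.12 to -0.15), and it was not called (limma adjusted p = 0.0986). In the duodenum, which RYGB takes out of the path of food, it was 109.1 to 185.0 CPM against 119.6 to 160.9 CPM, with a log2 fold change of 0.07 and an interval of -0.39 to 0.54. The segments were not compared with each other by a test.

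Liver, WAT and muscle gave no call for Insr. The liver values were 157.3, 176.7, 153.4 and 193.4 CPM in the sham and 181.2, 169.5, 212.8 and 214.1 CPM in the RYGB libraries, with a log2 fold change of 0.19 (95% interval -0.08 to 0.46). In WAT the sham libraries held 173.2 to 256.2 CPM and the RYGB libraries 171.9 to 217.7 CPM (log2 fold change -0.19, interval -0.51 to 0.13), and in muscle the ranges were 123.2 to 135.5 CPM and 128.7 to 187.3 CPM (log2 fold change 0.18, interval -0.08 to 0.44). The intervals thus reach no further than 0.51 from 0 in either direction in these 3 tissues.

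Igf1r, the receptor for IGF-1 and the closest relative of the insulin receptor, was listed in WAT and muscle and was low in both (chromosome 7, 67952827 to 68233668, plus strand). WAT held 16.6, 16.8, 25.2 and 21.4 CPM in the sham and 12.9, 15.4, 17.4 and 21.2 CPM in the RYGB libraries. Muscle held 7.3, 8.4, 7.8 and 5.3 CPM against 7.1, 6.6, 12.9 and 10.4 CPM. The groups overlapped in both tissues and neither was called (log2 fold change -0.25, limma adjusted p = 0.300 in WAT, and 0.29, adjusted p = 0.574 in muscle). Per kilobase of exon, Insr was at 15.6 CPM in sham WAT and Igf1r at 1.19 CPM, and in sham muscle they were at 9.36 and 0.429 CPM. The log2 ratio of Insr to Igf1r within a library differed between the groups by 0.07 in WAT and by -0.14 in muscle, with exact two-sided permutation p-values of 0.800 and 0.571 (4 against 4 libraries, smallest possible p 0.0286, both adjusted to 0.943 over the 5 ratio tests made).

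Irs1 and Irs2 encode the main substrates of the receptor. Irs1 lies on chromosome 1 (82233101 to 82291416) and Irs2 on chromosome 8 (10984681 to 11008458), both on the minus strand. Their exons overlap those of an annotated gene on the opposite strand (Gm9747 and 9530052E02Rik), which was listed in none of the tables. The 250 bases in front of the RefSeq transcription start (GRCm38.p6) are shown for both because these genes share letters there. Capitals mark CACGTG, an E-box that is its own reverse complement, and TGTTTTG, a core known from insulin response elements. The motifs, the latter searched on both strands together with TGTTTAC of forkhead sites, were chosen after the sequences had been seen.
Irs1 (chr1:82291440-82291689, minus strand): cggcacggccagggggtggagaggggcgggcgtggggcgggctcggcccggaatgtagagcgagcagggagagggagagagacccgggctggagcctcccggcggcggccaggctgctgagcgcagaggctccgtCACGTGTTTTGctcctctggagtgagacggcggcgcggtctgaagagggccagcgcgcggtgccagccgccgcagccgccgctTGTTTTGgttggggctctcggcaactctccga
Irs2 (chr8:11008930-11009179, minus strand): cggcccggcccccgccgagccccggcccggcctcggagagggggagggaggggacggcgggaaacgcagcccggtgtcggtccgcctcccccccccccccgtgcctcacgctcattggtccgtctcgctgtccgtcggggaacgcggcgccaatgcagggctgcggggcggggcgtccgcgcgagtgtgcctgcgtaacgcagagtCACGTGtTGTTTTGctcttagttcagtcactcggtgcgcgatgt
In Irs1 the E-box lies 115 to 110 bases before the start and overlaps an insulin response core at 111 to 105, and another such core lies 32 to 26 bases before the start. In Irs2 the E-box at 44 to 39 is followed by one such core at 37 to 31. Of 32851 RefSeq promoter windows of this length 6.02% hold CACGTG, 5.56% hold TGTTTTG on either strand, 0.295% hold both, and 7 windows (0.0213%) hold both with starts within 10 bases of each other. Those 7 windows belong to 7 genes, among them Irs1 and Irs2 themselves and Irs4, another gene of the IRS family. The limit of 10 bases covers the spacing in the Irs1 and Irs2 windows shown, so this share is a description and no test. No E-box, TGTTTTG or TGTTTAC was found in these windows of the other 6 genes of the set that have one (Igf1r, Pik3r1, Akt2, Tbc1d4, Grb14 and Enpp1). A match of letters is a description and does not show that a factor binds there.

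The levels of the pair differed by tissue in the sham mice. Irs1 was at 158.0 CPM in muscle, 125.4 CPM in WAT and 32.5 CPM in liver. Irs2 was at 59.2 CPM in WAT, 40.6 CPM in ileum, 25.7 CPM in duodenum, 22.0 CPM in jejunum, 14.0 CPM in muscle and 5.9 CPM in liver. In that order the WAT and gut ranges of Irs2 overlap one another (28.2 to 86.5 CPM in WAT, 9.6 to 73.3 CPM over the gut segments), and the liver range (2.7 to 9.7 CPM) lies under those of muscle, jejunum, ileum and WAT and meets the lowest duodenum library. Sham libraries of 1 tissue could lie far apart, from 12.6 to 73.3 CPM over the 5 sham ilea.

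In liver Irs2 was 2.7, 5.2, 9.7 and 6.1 CPM in the sham and 7.0, 23.1, 14.7 and 29.4 CPM in the RYGB libraries. RYGB libraries 2, 3 and 4 lay above every sham library, and RYGB library 1 lay inside the sham range. The log2 fold change was 1.43 (SE 0.40, 95% interval 0.54 to 2.32), which just missed the threshold (limma adjusted p = 0.0522). It was past it without sham replicate 3 or without RYGB replicate 1, with 1.81 as the value without the latter, and with lane as a factor (1.57, adjusted p = 0.0226). Within the 3 lanes, each of which holds both groups, the difference was 0.37, 1.47 and 2.56. After scaling by median ratio the value was 1.30 (adjusted p = 0.0844). Irs1 in the same livers was 31.4, 39.1, 32.5 and 27.0 CPM against 41.7, 36.7, 58.9 and 47.4 CPM, with a log2 fold change of 0.48 (SE 0.16, adjusted p = 0.0781). Only RYGB replicate 2 overlapped the sham range. The log2 ratio of Irs2 to Irs1 was -2.56 ± 0.784 (SD, n = 4) in sham liver and -1.48 ± 0.952 (SD, n = 4) in RYGB liver, a difference of 1.08 with an exact two-sided permutation p of 0.143 (0.715 over the 5 ratio tests).

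In WAT both substrates had lower means after RYGB, and Irs1 was called. Irs1 was 114.0, 124.3, 142.9 and 120.5 CPM in the sham and 90.5, 108.9, 74.3 and 54.7 CPM in the RYGB libraries. All RYGB libraries lay below all sham libraries, as for 15% of all genes in WAT in that direction, and the log2 fold change was -0.64 (SE 0.19, limma adjusted p = 0.0309). The difference was -0.40 and -1.13 in the 2 lanes with both groups. The call was lost in 4 of the 8 fits without 1 library (adjusted p up to 0.0783), and the value was -0.47 without RYGB replicate 4 (adjusted p = 0.0298). Subtracting the mean of the 7 adipocyte markers in each library moved the median of all WAT genes from 0.11 to 0.77 and ended the call. The log2 fold change of Irs1 was then 0.02 (limma adjusted p = 0.956), and -0.10 without Lep among the markers. The 7 markers themselves had log2 fold changes from -1.38 (Lep) to -0.39 (Plin1), beside -0.64 for Irs1. The part of adipocytes in the Irs1 value was not tested. The sum of 4 endothelial markers, all called lower, was 1589.5 to 2688.8 CPM in the sham and 884.1 to 1290.3 CPM in the RYGB libraries, and its part in the Irs1 value was not tested. Irs2 was 47.9, 28.2, 74.1 and 86.5 CPM against 28.8, 42.7, 25.0 and 40.7 CPM, with overlapping groups and a log2 fold change of -0.68 (SE 0.34, adjusted p = 0.131). It was past the threshold without sham replicate 2 (-0.99, adjusted p = 0.0315). The ratio of Irs2 to Irs1 in WAT differed by -0.05 (exact two-sided permutation p = 0.943).

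Muscle showed little difference in either substrate. Irs1 was 135.9, 142.7, 202.5 and 150.9 CPM in the sham and 121.0, 136.6, 142.2 and 186.8 CPM in the RYGB libraries (log2 fold change -0.11, interval -0.46 to 0.24). Irs2 ranged from 10.5 to 16.0 CPM and from 11.2 to 23.2 CPM (log2 fold change 0.05, interval -0.44 to 0.54). In the gut, where Irs1 was not listed, Irs2 gave its largest difference in the jejunum, at 18.4, 15.5, 41.5 and 12.4 CPM against 6.9, 4.8 and 13.4 CPM. The groups overlapped through 1 RYGB library, and the log2 fold change of -1.25 (SE 0.42) was not called (adjusted p = 0.0918). The interval was wide in the duodenum (0.14, from -1.09 to 1.36) and in the ileum (-0.45, from -1.33 to 0.43).

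**Figure D2:**
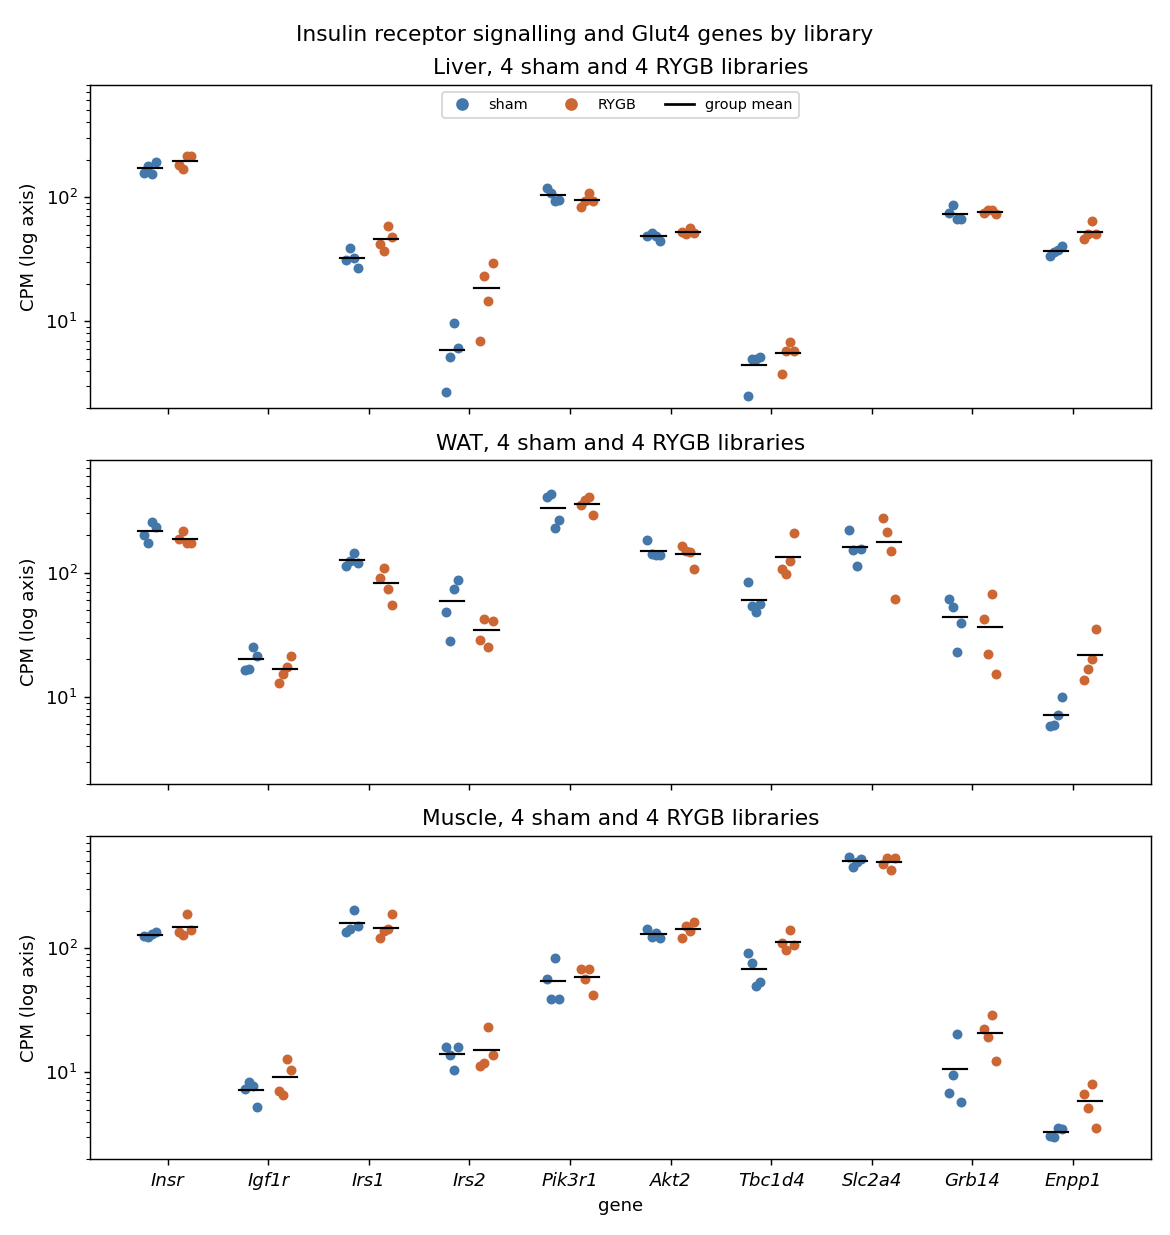
CPM of the 10 genes in each library of liver, WAT and muscle on a log axis, with sham libraries in blue, RYGB libraries in orange and a black line at each group mean. Igf1r and Slc2a4 have no points in liver because they were not listed there. Enpp1 is separated between the groups in liver and WAT, Tbc1d4 in WAT and muscle and Irs1 in WAT, while Slc2a4 in muscle stays between 424.7 and 543.6 CPM in all 8 libraries.

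Pik3r1 encodes p85-alpha, the regulatory subunit that docks PI3K on phosphorylated IRS proteins (chromosome 13, 101680563 to 101768217, minus strand). It was most abundant in WAT, at 409.3, 430.4, 227.0 and 267.1 CPM in the sham and 347.9, 385.2, 408.4 and 289.7 CPM in the RYGB libraries. The groups overlapped, and the log2 fold change was 0.14 (95% interval -0.37 to 0.65). Liver held 93.1 to 118.4 CPM and 82.8 to 107.7 CPM (log2 fold change -0.13, interval -0.39 to 0.13), and muscle 39.1 to 83.7 CPM and 42.2 to 68.0 CPM (0.15, interval -0.40 to 0.70). In the ileum it was 94.0, 81.3, 73.3, 71.5 and 92.4 CPM in the sham and 62.6, 59.6, 28.6, 65.6 and 58.9 CPM in the RYGB libraries. The groups did not overlap, as for Insr and for 6.92% of all ileum genes in that direction. The log2 fold change of -0.62 (SE 0.20) was not called (limma adjusted p = 0.0797). It was called without RYGB replicate 3, the lowest library (-0.41, adjusted p = 0.0467). The same RYGB library was the lowest for Insr.

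Akt2 encodes the Akt kinase most closely tied to insulin action in fat and muscle (chromosome 7, 27591552 to 27640826, plus strand). Sham means were 149.9 CPM in WAT, 129.7 CPM in muscle, 48.2 CPM in liver and 19.8 to 23.0 CPM in the gut, and the WAT and muscle ranges overlapped (137.8 to 183.7 CPM and 120.9 to 141.9 CPM). In muscle Akt2 was 141.9, 123.6, 132.4 and 120.9 CPM in the sham and 121.3, 150.2, 138.5 and 163.8 CPM in the RYGB libraries. In WAT it was 183.7, 140.1, 138.1 and 137.8 CPM against 163.5, 150.4, 145.8 and 106.8 CPM. The groups overlapped in all 6 tissues, the log2 fold change lay between -0.09 and 0.14, and the lowest adjusted p was 0.404, in liver.

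Tbc1d4 encodes the Rab GTPase-activating protein that holds Glut4 vesicles inside the cell until Akt phosphorylates it. It lies on chromosome 14 (101442360 to 101609191, minus strand), and its 250 bases before the RefSeq start are shown because its message was among those called.
Tbc1d4 (chr14:101609192-101609441, minus strand): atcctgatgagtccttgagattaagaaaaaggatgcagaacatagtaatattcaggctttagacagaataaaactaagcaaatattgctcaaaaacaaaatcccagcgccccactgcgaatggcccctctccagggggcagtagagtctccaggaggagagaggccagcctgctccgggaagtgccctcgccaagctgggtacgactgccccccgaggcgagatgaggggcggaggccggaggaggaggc
In WAT Tbc1d4 was 83.6, 53.8, 48 and 56.1 CPM in the sham and 107.9, 98.3, 125.2 and 207.1 CPM in the RYGB libraries. The lowest RYGB value exceeded the highest sham value, as for 26.1% of all genes in WAT in that direction. The fold change was 2.16 (log2 1.11, SE 0.25, limma adjusted p = 0.0116). The call held in all 8 fits without 1 library (log2 fold change from 0.89 without RYGB replicate 4 to 1.28), and the difference was 0.72 and 1.87 within the 2 lanes with both groups. The highest Tbc1d4 value was in RYGB replicate 4, which also had the highest B cell and T cell sums and the lowest adipocyte sum.

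Muscle Tbc1d4 went the same way without reaching the threshold. It was 90.6, 76.4, 49.8 and 53.0 CPM in the sham and 110.2, 95.8, 139.0 and 105.5 CPM in the RYGB libraries. The groups did not overlap, which in muscle was found in that direction for 4.77% of all genes. The fold change was 1.70 (log2 0.76, SE 0.19, 95% interval 0.33 to 1.19), with an unadjusted p of 0.00299 and an adjusted p of 0.135 in the limma fit, which called 0 genes in this tissue. Over the fits without 1 library the log2 fold change stayed between 0.63 and 0.92, and in the 1 lane that holds both groups (2 libraries each) it was 0.30, as in the fit with lane as a factor (adjusted p = 0.493). Muscle libraries differed in other lists too. The sum of 6 skeletal muscle markers was 150906.6 to 183828.2 CPM in the sham and 107116.9 to 145571.6 CPM in the RYGB libraries. That of the 3 genes listed for smooth muscle (Myh11, Acta2 and Des) was 2665.3 to 2890.4 CPM against 3779.9 to 4070.1 CPM. Des is also a gene of skeletal muscle fibres, so this sum does not measure smooth muscle here. No gene of either list was called. In liver Tbc1d4 was low, at 2.5 to 5.2 CPM and 3.8 to 6.8 CPM (log2 fold change 0.29, adjusted p = 0.418), and in the duodenum it was at 1.2 to 1.9 CPM and 1.5 to 3.1 CPM.

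Slc2a4 encodes Glut4, the transporter that Tbc1d4 governs (chromosome 11, 69942539 to 69948188, minus strand). It was listed in muscle and WAT and in no other tissue. In muscle it was 543.6, 447.8, 496.0 and 520.2 CPM in the sham and 472.3, 535.4, 424.7 and 531.2 CPM in the RYGB libraries. The groups lay on top of each other, with means of 501.9 ± 41.0 and 490.9 ± 52.7 CPM (SD, n = 4 each). The log2 fold change was -0.03 (SE 0.10, limma adjusted p = 0.919), and its 95% interval of -0.26 to 0.19 leaves out a change of 1.5-fold in either direction. In WAT Slc2a4 was 221.2, 152.4, 114.1 and 154.3 CPM in the sham and 277.6, 214.2, 150.3 and 61.7 CPM in the RYGB libraries. The RYGB group thus held both the highest and the lowest library. The log2 fold change was -0.02 (SE 0.42, adjusted p = 0.967) with an interval of -0.98 to 0.93, and it was 0.41 without RYGB replicate 4 and -0.31 without RYGB replicate 1. Among the RYGB libraries the order of Slc2a4 was that of the adipocyte sum (7323.6, 7124.8, 6127.7 and 3829.4 CPM), while among the sham libraries the highest adipocyte sum was not in the library with the highest Slc2a4.

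Grb14 encodes an adaptor that binds the activated receptor and blocks its kinase (chromosome 2, 64912476 to 65024987, minus strand). Sham means were 73.5 CPM in liver, 44.1 CPM in WAT and 10.6 CPM in muscle. The liver values, 75.1, 86.0, 66.2 and 66.8 CPM in the sham and 74.2, 79.0, 79.4 and 73.0 CPM in the RYGB libraries, overlapped closely, with a log2 fold change of 0.06 (95% interval -0.18 to 0.30). WAT was uneven in both groups (61.4, 52.7, 22.8 and 39.5 CPM against 42.4, 22.0, 66.9 and 15.3 CPM, log2 fold change -0.39, interval -1.43 to 0.65). In muscle it was 6.8, 9.5, 20.3 and 5.8 CPM in the sham and 22.4, 19.1, 28.9 and 12.4 CPM in the RYGB libraries. One sham library lay within the RYGB range, and the fold change of 2.00 (log2 1.00, SE 0.35) was not called (limma adjusted p = 0.243).

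Enpp1 encodes a membrane pyrophosphatase, first known as a plasma cell antigen (PC-1), that can bind the insulin receptor and dampen its kinase. It was the one gene of the set called in more than 1 tissue. It lies on chromosome 10 (24637914 to 24712159, minus strand), and its promoter window is shown for that reason.
Enpp1 (chr10:24712160-24712409, minus strand): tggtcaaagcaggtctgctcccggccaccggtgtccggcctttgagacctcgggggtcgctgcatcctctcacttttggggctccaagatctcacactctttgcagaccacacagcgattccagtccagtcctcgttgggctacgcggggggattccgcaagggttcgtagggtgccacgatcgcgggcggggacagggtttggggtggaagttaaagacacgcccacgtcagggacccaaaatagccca
In WAT Enpp1 was 5.8, 5.9, 7.1 and 10.0 CPM in the sham and 13.8, 16.7, 20.2 and 35.5 CPM in the RYGB libraries. All RYGB libraries lay above all sham libraries, as for 26.1% of all genes in WAT in that direction. The fold change was 2.64 (log2 1.40, SE 0.28, limma adjusted p = 0.00763), and it was called in all 8 fits without 1 library (log2 fold change from 1.14 without RYGB replicate 4 to 1.57). Within the lanes with both groups the difference was 1.5 and 1.73. The RYGB libraries ranked by Enpp1 in the order of their B cell sums (809.0, 1247.6, 1544.5 and 2091.1 CPM) and of their T cell sums, and in the reverse order of their adipocyte sums. The sham libraries did not keep these orders. Sham replicate 4, with the highest sham Enpp1, had the highest adipocyte sum (10390.3 CPM) and T cell sum (16.8 CPM) of the sham group. The highest sham B cell sum was in sham replicate 3 (16.3 CPM, beside 12.2 CPM in sham replicate 4). The part of these cells in the Enpp1 and Tbc1d4 values was not tested.

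In liver Enpp1 was 33.3, 36.5, 37.3 and 40.1 CPM in the sham and 45.7, 50.3, 63.9 and 50.5 CPM in the RYGB libraries. The groups did not overlap, as for 13.4% of all liver genes in that direction. The fold change of 1.41 (log2 0.50, SE 0.12, limma adjusted p = 0.0319) was called with all libraries, and the call was lost in 6 of the 8 fits that left out 1 library (adjusted p from 0.0226 to 0.0915, log2 fold change from 0.40 to 0.56) and with lane as a factor (adjusted p = 0.0554). The difference was above 0 in each of the 3 lanes (0.32, 0.37 and 0.75). After scaling by median ratio it was 0.35 (adjusted p = 0.0477), and without RYGB replicate 2, the library with the highest macrophage and neutrophil sums (1573.6 and 462.4 CPM), it was 0.51 (adjusted p = 0.0568). The sum of 4 fibroblast markers, 3 of them called higher, was 210.8 to 273.1 CPM in the sham and 273.0 to 513.9 CPM in the RYGB livers. RYGB replicate 3 had both the highest fibroblast sum and the highest Enpp1. The other RYGB livers did not follow that order. RYGB replicate 4 had the lowest of their fibroblast sums (273.0 CPM) with Enpp1 at 50.5 CPM. RYGB replicates 1 and 2 had sums of 343.4 and 405.9 CPM, with Enpp1 at 45.7 and 50.3 CPM. The part of these cells in the liver value was not tested. B cell markers summed to 1.9 to 2.7 CPM in the sham and 2.4 to 8.0 CPM in the RYGB livers, and 4 of the 6 were not listed.

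Muscle Enpp1 was 3.1, 3.0, 3.6 and 3.5 CPM in the sham and 6.7, 5.2, 8.1 and 3.6 CPM in the RYGB libraries. The lowest RYGB library equalled the highest sham library at the rounding of the table. The log2 fold change was 0.64 (SE 0.20, adjusted p = 0.189), and it was 0.82 and past the threshold without RYGB replicate 4 (adjusted p = 0.0335). None of the 6 B cell and 5 T cell markers was listed in muscle. In the gut the point estimates were 0.33 in duodenum (14.1, 11.5, 17.9 and 14.1 CPM against 17.4, 19.7 and 17.4 CPM, interval -0.04 to 0.70), 0.01 in jejunum and 0.27 in ileum. None of these 3 was called.

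**Figure D3:**
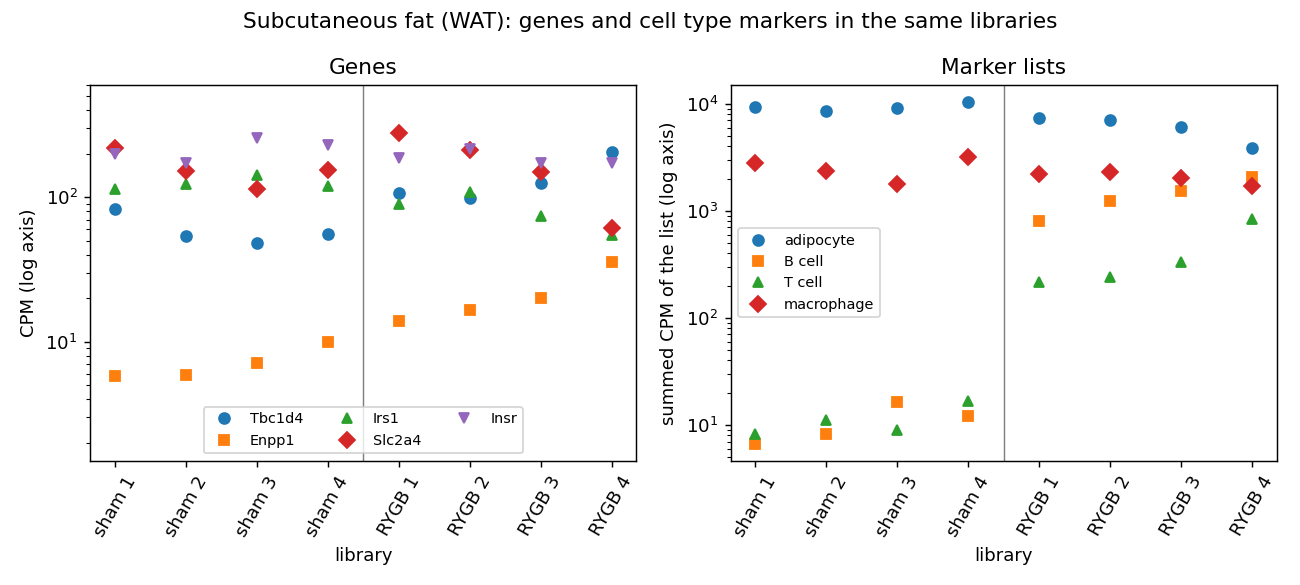
Left, CPM of 5 genes in each of the 8 WAT libraries on a log axis. Right, the summed CPM of the adipocyte, B cell, T cell and macrophage marker lists in the same libraries, also on a log axis. RYGB replicate 4 has the highest Tbc1d4 (207.1 CPM) and Enpp1 (35.5 CPM), the lowest Slc2a4 (61.7 CPM) and Irs1 (54.7 CPM), the highest B and T cell sums and the lowest adipocyte sum.

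Set side by side per kilobase of exon in the sham mice, with no test because each tissue table was normalized on its own, the pathway had a different make-up in each tissue. Slc2a4 led in muscle (144.0 CPM per kilobase) and WAT (46.1). In WAT Pik3r1 (33.1), Akt2 (21), Insr (15.6), Irs1 (13.7) and Irs2 (9.36) followed. In muscle Akt2 (18.2) and Irs1 (17.3) came next, above Insr (9.36) and Tbc1d4 (8.79), with Irs2 at 2.22. Liver had Insr (12.4), Pik3r1 (10.3) and the inhibitor Grb14 (10.2) at like levels, then Akt2 (6.76), Enpp1 (3.59) and Irs1 (3.55), with Irs2 at 0.937 per kilobase in these fasted mice. In the 3 gut segments Insr (9.87 to 10.2) and Pik3r1 (8.08 to 8.27) led, and Enpp1 was at 1.21 to 1.40 per kilobase. Irs2 (3.47 to 6.41) and Akt2 (2.78 to 3.22) lay between them and were not ordered, since 1 library each in duodenum (59.2 CPM) and jejunum (41.5 CPM) raised the Irs2 mean.

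**Figure D4:**
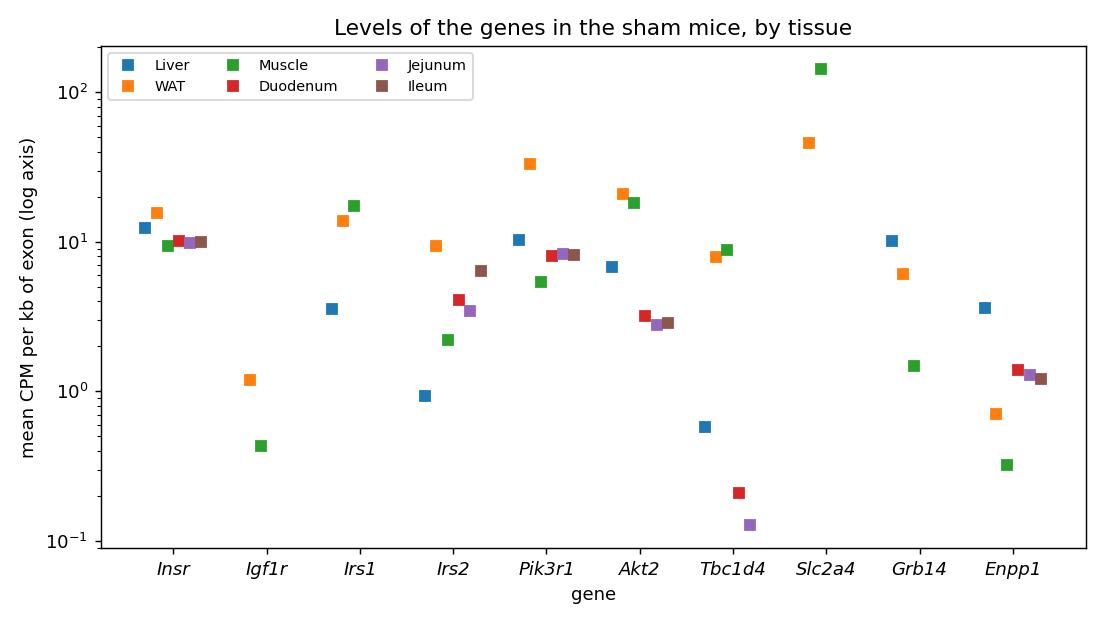
Mean CPM per kilobase of exon in the sham libraries of each tissue on a log axis, for each gene listed in that tissue. Insr lies between 9.36 and 15.6 in all 6 tissues, while Tbc1d4 spans 0.127 in jejunum to 8.79 in muscle and Slc2a4 is shown for muscle and WAT alone.

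By Pearson correlation of log2(CPM + 1) across libraries, as a description in which differences between tissues carry most of the value, the genes most like Slc2a4 over the 16 WAT and muscle libraries were Idh3a (r = 0.985), AI464131 (0.975), 0610009B22Rik (0.975), Sod2 (0.972) and Hk2 (0.971), among 11172 genes. Those most like Irs2 over all 48 libraries were Zbtb39 (r = 0.785), Glg1 (0.777), Zfp236 (0.762), Fam53b (0.756) and Igf2r (0.750), among the 8771 genes listed in all 6 tables. Libraries of a tissue share a table and its normalization.

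A wider set of 83 pathway genes in 5 lists shows how the rest of the pathway stood in the same fits. In liver none of the 27 genes of the receptor and PI3K-Akt steps was called by limma, though 15 had an unadjusted p under 0.05 (26.9% of all genes had), and their median log2 fold change was 0.23 beside 0.13 for all genes. Of the 5 insulin-induced transcripts 4 were called lower in RYGB liver, as were 186 of all 11807 genes. On the log2 scale Scd1, which desaturates fatty acids, was at -5.39 (adjusted p = 0.0139) and Pnpla3, a lipid droplet protein, at -2.64 (adjusted p = 0.0292). The fatty acid synthase gene Fasn was at -1.81 and the lipogenic regulator Srebf1 at -1.63. Sham Scd1 spread from 817.7 to 22110.2 CPM, with 59.1 to 607.3 CPM after RYGB. Pnpla3 was low, at 1.5 to 27.7 CPM against 0.6 to 1.0 CPM. Srebf1 was 278.1 to 331.1 CPM in the sham and 74.6 to 196.0 CPM in the RYGB libraries. Of 6 FoxO and fasting transcripts 2 were higher, where 7.03% of all genes were. They were Igfbp1, a secreted IGF-binding protein that insulin represses (10.3 to 40.2 CPM against 49.3 to 492.2 CPM, log2 fold change 2.89, adjusted p = 0.0177), and the coactivator gene Ppargc1a (0.72, adjusted p = 0.0195). Without sham 4 the counts of these lists were 2 lower and 0 higher, and without RYGB 3 they were 2 lower and 1 higher.

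Among the inhibitors 3 of 21 were higher in liver, namely Socs2 (1.56), Trib3 (1.14), a pseudokinase that can bind Akt, and Dok1 (0.77), and among the Glut4 traffic genes 3 of 23, the motor gene Myo1c (0.82), the GTPase gene Rhoq (0.76) and Mef2d (0.47). Slc2a2, the Glut2 gene of liver, was not called (0.19, adjusted p = 0.427). Altogether 12 of 82 tested list genes were called in liver, 14.6% beside 8.61% of all genes. Leaving out 1 library changed this count to 6 (sham 1 or sham 2), 3 (sham 4), 4 (RYGB 3) or 19 (RYGB 1). After scaling by median ratio 5 list genes were called higher and 5 lower in place of 8 and 4, as for all genes the share of higher calls went from 81.7% to 59.9%.

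WAT list genes were called in both directions, 16 higher and 10 lower of 78, or 33.3% beside 37.2% of all genes. Of the 27 receptor and PI3K-Akt genes 5 were higher, led by Pik3cd (2.23, 45.0 to 65.4 CPM against 164.3 to 500.2 CPM), the PI3K subunit of leukocytes, and Cbl (0.99), a ubiquitin ligase. The 4 lower ones included Gab1 (-0.75, 51.2 to 64.1 CPM against 28.0 to 38.3 CPM), a docking protein. Of 21 inhibitors 4 were higher, led by the cytokine-signalling suppressors Socs1 (1.30) and Socs3 (1.17), and 4 lower, led by Pid1 (-1.08) and Trib3 (-0.80). Of 22 Glut4 traffic genes 7 were higher, led by Mef2c (0.95), a transcription factor of muscle and B cells, and Rab8a (0.64), and 2 were lower, Rab13 (-0.64) and Trip10 (-0.49). Rab8a and Rab13 encode Rab GTPases of vesicle traffic. No gene of the insulin-induced list (4 tested, 0 with an unadjusted p under 0.05) or of the FoxO list (4 tested, 1) was called in WAT. The counts were 15 and 11 without RYGB replicate 4, and 14 and 20 after scaling by median ratio, where the share of higher calls over all genes went from 63.1% to 50.4%. Leaving out sham 2 brought the total to 15, and leaving out sham 3 or RYGB 3 brought it to 17.

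In muscle none of 77 list genes was called by limma (12 had an unadjusted p under 0.05), and in the duodenum none of 74 (8 had). Hk2, which traps the glucose that Glut4 brings in, was 243.6 to 339.2 CPM in the sham and 258.6 to 385.3 CPM in the RYGB muscles (log2 fold change 0.16, adjusted p = 0.668). Akt1 in muscle was 42.8 to 50.3 CPM against 54.7 to 65.1 CPM without overlap, as for 4.77% of all muscle genes in that direction. It was not called (0.36, adjusted p = 0.116).

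The jejunum had 6 list genes called higher and 11 lower of 74, 23% beside 9.81% of all genes, and the genes named here and for the ileum were chosen after their values were seen. Higher were Hk2 (4.47, 6.4 to 14.0 CPM against 139.4 to 690.2 CPM), the glucose transporter gene Slc2a1 (1.81, 3.7 to 5.1 CPM against 12.2 to 24.7 CPM) and Myo1c (0.99). Of the 5 FoxO and fasting transcripts tested, 4 were lower: Pdk4 (-4.52), Pck1 (-4.48), G6pc (-2.21) and Klf15 (-1.84). Klf15 was low, at 2.9 to 3.9 CPM in the sham and 0.0 to 0.7 CPM in the RYGB libraries. Srebf1 (-2.10) and Scd1 (-5.53) were lower and Fasn (1.85, limma adjusted p = 0.0483) was higher. The Fasn groups overlapped (5.4 to 23.0 CPM against 17.2 to 68.9 CPM). Its call was lost with lane as a factor and without sham 1, sham 3, sham 4, RYGB 2 or RYGB 3. The sum of 4 T cell markers, all called lower, was 20.4 to 36.8 CPM in the sham and 4.5 to 9.2 CPM in the RYGB jejunum. The sum of the 5 enterocyte markers was 46748.8 to 73116.1 CPM against 22606.5 to 43780.0 CPM, but 1 of the 5 was called lower and their median log2 fold change was 0.21. The part of these cells in the jejunal values was not tested. With lane as a factor 3 were higher and 8 lower. RYGB replicate 2 is alone in its lane, so leaving it out is the same check, with a total of 11. In the ileum 6 of 74 were called, all lower, among them Pck1 (-2.13), Pik3cd (-1.63), the Akt phosphatase gene Phlpp2 (-0.73) and Inpp5k (-0.69), or 8.11% beside 7.97% of all genes. The share of higher calls over all ileum genes was 28.7%, and 53.1% after scaling by median ratio.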

How the data were processed

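RNA of 48 libraries was analysed. Per the labels, villi were scraped after EDTA, RNA was extracted with RNeasy columns, fat was snap-frozen, and libraries were made with the TruSeq Stranded mRNA kit. The submitters' processing notes name HTSeq and the build GRCm38, and the aligner and annotation are not given in the sources used here. The authors deposited 1 table per tissue with CPM values rounded to 0.1 and 1 column per library, and listed columns sum to between 925122 and 998777 with 1 line kept per gene. The deposited jejunum and ileum columns and liver sham replicate 4 were treated as a score when units were checked, since repeated lines lift their sums over 1000000 or, in 12 liver lines, values are missing and misplaced, and otherwise used as CPM. Repeated lines held equal values and were counted once, and the 12 lines were left out. Total counts are not given, so no counting interval or count model was used.

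Values were tested with limma 3.58.1 (R 4.3.3, empirical Bayes with a trend) on log2(CPM + 1), in each tissue over all genes whose mean reached 1 CPM, with Benjamini-Hochberg adjustment over all its genes. On this scale the change of low genes is understated. Ratios used log2 values with 0.1 added and exact two-sided permutation tests (scipy 1.17.1), where both genes were listed. Adipocyte-relative values subtract the mean log2 value of 7 markers. On simulated data with a 2-fold change (log2 1) in 100 genes, the fit recovered the fewest in jejunum (45%, 10844 genes run), then duodenum (67%, 10853), WAT (72%, 13367), ileum (79%, 10721), liver (86%, 11795) and muscle (89%, 11967). Only genes averaging 10 CPM or more were changed in this simulation, so the shares do not apply to lower ones. Among these lower ones were Enpp1 and Igf1r in muscle, Tbc1d4 in liver and, in the sham group, Irs2 in liver. No 2 libraries held identical values. Alternatives were pseudocount, filter, scaling, lane, replicate block and leaving out each library. The 10 genes and all lists were chosen with earlier results of these data known. Named were the 10 genes, the 2 called genes furthest in each direction per list in liver, WAT and muscle, and the 5 genes most correlated with Slc2a4 and Irs2, with Slc2a4 compared over the 2 tables that list it. Other names were chosen after their values were seen. Some list genes that this rule or the counts cover are not reported here by name. Gene positions and exon lengths come from GENCODE M21 on GRCm38, and promoters from RefSeq on GRCm38.p6, which matched 8 of the 10 genes (not Insr and Slc2a4).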

Additional observations from a re-analysis of the deposited data

Results flagged for a closer look

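In 4 of 88 groups of 4 or 5 libraries, 1 library stood further from the others than Dixon's 95% limit, where chance gives about 1 in 20, or 4.4. The gap over range was taken on the log2(CPM + 1) scale, while the levels below are in CPM. In the ileum RYGB replicate 3 was low for Insr, at 73.3 CPM beside 94.7 to 100.1 CPM in the other 4 (gap over range 0.822), and for Pik3r1, at 28.6 CPM beside 58.9 to 65.6 CPM (0.869). In WAT sham replicate 1 was high for Akt2, at 183.7 CPM beside 137.8 to 140.1 CPM (0.942). In liver sham replicate 1 was low for Tbc1d4, at 2.5 CPM beside 5.0 to 5.2 CPM (0.943).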

How the results depend on the processing

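Among refits under another setting, 581 kept their direction and side of the threshold, 19 lost and 10 gained a call, and 54 changed sign, most of them for values near 0. Counts of called genes of the set were 0 in liver and 0 in ileum with the added 1.5-fold limit. Replicate numbers are shared by the groups, and whether they pair the libraries was not settled. Correlations of same-numbered deviations ran from -0.28 to 0.39. The sham libraries closest to the RYGB library of their own number were 3 of 4 in liver, 2 of 4 in WAT and 0 of 4 in muscle. They were 0 of 3 in duodenum, 0 of 3 in jejunum and 3 of 5 in ileum. With the replicate number as a block the calls of the set were 2 in liver (Irs2 joined), 1 in muscle (Grb14), 1 in jejunum (Irs2), and those of the lists 22 in liver and 2 in duodenum, while jejunum Akt2 (-0.026) and Enpp1 (-0.019) changed sign. Over all genes the block gave 1523 higher and 253 lower calls in liver, where the main fit gave 830 and 186. In muscle it gave 177 and 22 in place of 0 and 0. In duodenum it gave 182 and 86 in place of 0 and 1. In WAT (3083 and 1760), jejunum (487 and 473) and ileum (181 and 501) it gave fewer than the main fit. Why these counts changed was not tested.

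Scaling by median ratio, which removes the shift of all genes, turned liver Akt2 (-0.020) and Grb14 (-0.089), muscle Irs2 (-0.0076), duodenum Akt2 (-0.066), Insr (-0.056) and Pik3r1 (-0.025), jejunum Pik3r1 (0.034) and ileum Akt2 (0.089), none of them called. Lane as a factor turned WAT Pik3r1 (-0.015), muscle Igf1r (-0.17), Slc2a4 (0.027) and Irs2 (-0.33), and left 11 list genes called in jejunum. Relative to the adipocyte markers, where the median of all WAT genes was 0.77 and 99.1% of all calls were higher, WAT Akt2 (0.57), Igf1r (0.42), Insr (0.47), Slc2a4 (0.64), Grb14 (0.27) and Irs1 (0.017) turned, and 42 list genes were called. The subtraction moves all WAT genes by the same amount, and the 6 values in brackets lie below that median. Without Lep among those markers, an alternative chosen after seeing the data, Akt2 (0.45), Igf1r (0.30), Insr (0.35), Slc2a4 (0.52) and Grb14 (0.15) turned, below a median of 0.65.

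Leaving out 1 library gave 0 to 2 calls of the set in liver, 0 to 1 in muscle and 0 to 2 in ileum, and 3 to 19 list genes in liver, 15 to 32 in WAT, 0 to 4 in duodenum and 11 to 18 in jejunum. Log2 fold changes that changed sign ranged from -0.16 to 0.041 for Akt2, -0.31 to 0.41 for Slc2a4 and -0.025 to 0.28 for Pik3r1 in WAT, from -0.088 to 0.033 for Slc2a4, -0.16 to 0.17 for Irs2 and -0.23 to 0.017 for Irs1 in muscle, from -0.038 to 0.21 for Insr, -0.19 to 0.64 for Irs2 and -0.028 to 0.24 for Pik3r1 in duodenum, from -0.10 to 0.10 for Akt2, -0.14 to 0.21 for Enpp1 and -0.17 to 0.13 for Pik3r1 in jejunum, and from -0.065 to 0.045 for Akt2 in ileum. The ratio of Irs2 to Irs1 ranged from -0.36 to 0.20 in WAT and from -0.093 to 0.31 in muscle, and that of Insr to Igf1r from -0.050 to 0.23 and from -0.24 to 0.021. Ratios were not run in liver for Igf1r or in ileum, where a gene was not listed.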
